A study of Mus musculus with 6 samples.

Results

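Pdk4 and 9 further genes that set how much pyruvate is oxidised in mitochondria were examined in mouse liver, 10 of the 25904 genes in the deposited count table. They are the kinase genes Pdk4, Pdk1, Pdk2 and Pdk3, the phosphatase genes Pdp1 and Pdp2, the complex subunit genes Pdha1, Pdhb and Dlat, and the pyruvate carrier gene Mpc1, each matched by its name in the table. Pdk4 was chosen on its much lower read counts in Ptprd+/- than in Ptprd+/+ livers, so its values are given below as a description, without a test. The other 9 were taken for their function.

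Livers of C57BL/6J mice were compared by sequencing of polyadenylated RNA, 3 heterozygous for Ptprd (Ptprd+/-) and 3 wild type (Ptprd+/+). Ptprd encodes protein tyrosine phosphatase delta, a receptor of the cell surface, which the series' title ties to metabolic syndrome of the liver. The sources used here do not give the kind of altered allele, the sex, age, diet or feeding state of the mice, or the hour of sampling. Nothing in the labels says that the 3 livers of a genotype came from different mice, so p-values measure the spread between these samples. How much of that spread lies between mice was not tested.

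The pyruvate dehydrogenase complex turns pyruvate into acetyl-CoA inside mitochondria, and so joins glycolysis to the citrate cycle and to fatty acid synthesis. The pyruvate dehydrogenase kinases add phosphate to the E1 alpha subunit and switch the complex off, and the pyruvate dehydrogenase phosphatases remove it and switch the complex on. In the liver the switch is known to be off in the fasted state, when PDK4 is induced and pyruvate is spared for glucose production, and on after a meal, when insulin lowers PDK4.

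Total counts ranged from 38918379 to 72954187 in the Ptprd+/- libraries and from 37924266 to 48526395 in the Ptprd+/+ libraries, and levels are in CPM, read counts per library size after TMM scaling in edgeR. Ptprd had 54.1, 78.1 and 63.4 CPM in the Ptprd+/- libraries, against 128, 127 and 132 CPM in the Ptprd+/+ libraries, so each library followed its genotype label. By edgeR's quasi-likelihood test, 0 of 14606 tested genes had an adjusted p under 0.05 (0%), and 1045 genes (7.15%) had an unadjusted p under 0.05. The count was 0 with limma-voom and 64 (0.438%) with DESeq2. Clock output divided the Ptprd+/- libraries: Dbp, a transcription factor under direct clock control, had 13.5, 129 and 122 CPM there, against 18.9, 29.6 and 14.4 CPM in Ptprd+/+ libraries. Ptprd+/- 2 and Ptprd+/- 3 thus stood apart from the other 4 libraries, so the log2 fold changes of the 10 genes and of the 3 leading genes of each list that moved by over 1.5 times or changed sign without both are also given from the 1 heterozygous library that remains. Hepatocyte markers dominated, with a summed 143510 to 175630 CPM over 6 markers in Ptprd+/- and 119650 to 144230 CPM in Ptprd+/+ libraries. Alb and Ttr of these 6 were higher in all Ptprd+/- libraries, against 7.15% of all tested genes higher without overlap. The summed level of 5 stellate cell markers was 226 to 255 CPM in Ptprd+/- and 249 to 298 CPM in Ptprd+/+ libraries. Of these markers Dcn was lower and Des higher without overlap, against 6.72% lower and 7.15% higher over all tested genes. The part of hepatocytes and stellate cells in any difference below was not tested. Of the markers of tissues known for high Pdk4, the muscle genes Ckm, Acta1, Tnnt3 and Mb and the adipocyte genes Adipoq, Plin1 and Cidea stayed under 1 CPM in all 6 libraries. The summed level of 5 muscle markers was 0.725 to 1.15 CPM in Ptprd+/- and 0.860 to 1.26 CPM in Ptprd+/+ libraries, and that of 4 adipocyte markers was 16.3 to 23.1 and 12.9 to 17.5 CPM in the same order of genotypes. Since Adipoq, Plin1 and Cidea stayed under 1 CPM, most of the adipocyte sum came from the remaining marker, Lipe.

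Pdk4 was the lowest of the 10 genes relative to wild type. It encodes the kinase isoform that fasting and fatty acids induce through peroxisome proliferator-activated receptors, FOXO factors and glucocorticoids. The gene (ENSMUSG00000019577) occupies 5483351 to 5496309 of chromosome 6 in mm10, the build of all positions here. It had 226, 293 and 219 reads in the Ptprd+/- libraries, against 622, 1631 and 615 reads in the Ptprd+/+ libraries. As CPM these were 6.20, 6.24 and 2.94 in Ptprd+/- and 13.5, 31.9 and 16.5 in Ptprd+/+ livers, with means of 5.12 ± 1.89 and 20.6 ± 9.86 CPM (SD, n = 3 each). All 3 Ptprd+/- libraries lay below all Ptprd+/+ libraries, and the lowest wild-type library was 2.16-fold above the highest heterozygous one. Groups without overlap, lower in Ptprd+/-, were found for 6.72% of all tested genes. The fitted log2 fold change was -2.02 (SE 0.39), 4.06-fold lower in Ptprd+/-, which placed Pdk4 at rank 14 from the bottom among the 11988 tested genes with a mean of at least 1 CPM.

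The level of Pdk4 also varied within each genotype, by 2.12-fold between the highest and the lowest Ptprd+/- library and by 2.36-fold among Ptprd+/+ libraries. Ptprd+/+ 2 was the highest library of all, and without it the log2 fold change was -1.55. The lowest library of all was Ptprd+/- 3, without which it was -1.73. Ptprd+/- 1, whose Dbp level lay near those of the wild-type libraries, had a Pdk4 level close to that of Ptprd+/- 2, whose Dbp level did not. Other clock genes of Ptprd+/- 1 lay outside the wild-type range. Per3, chosen after its values were seen, had 13.1 CPM there, against 39.1, 43.7 and 24.4 CPM in Ptprd+/+ libraries. With Ptprd+/- 1 as the one heterozygous library the log2 fold change of Pdk4 was -1.73. When 1 library was left out, it ranged from -2.25 to -1.55. In whole-liver RNA, fewer cells with the transcript and less transcript per cell cannot be told apart.

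**Figure D1:**
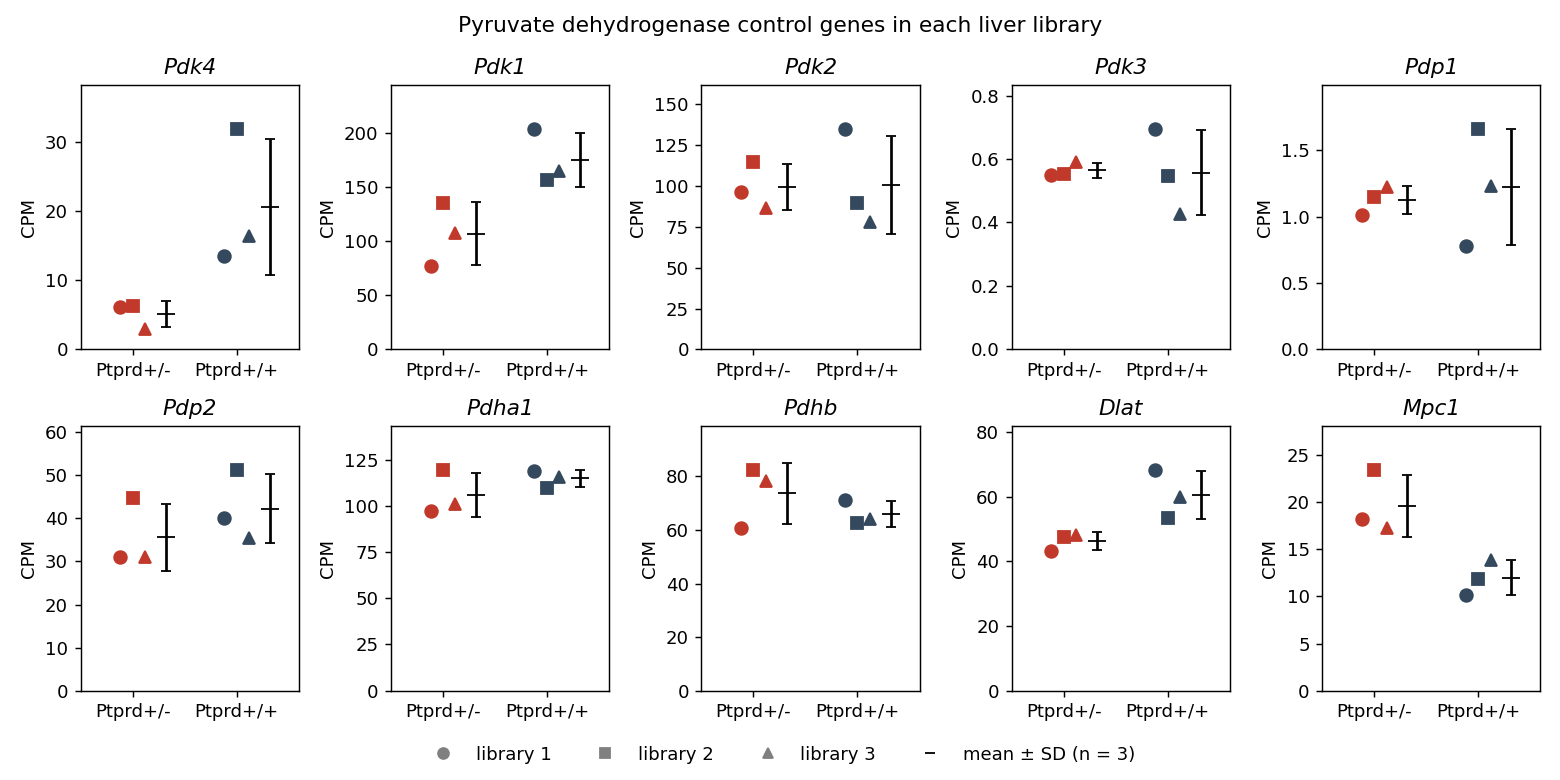
Expression of the 10 genes in CPM (y axis, from 0, a scale of its own in each panel) in the 3 Ptprd+/- libraries (red, left) and the 3 Ptprd+/+ libraries (dark, right), with bars for mean ± SD (n = 3). Pdk4, Pdk1 and Dlat lie lower in all Ptprd+/- libraries, Mpc1 lies higher, and the groups overlap in the other 6 genes.

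The stretch upstream of a gene's start is where general promoter factors bind, and 4 of these stretches are shown to set Pdk4 beside a paralog that was also lower (Pdk1), a paralog that was not separated by genotype (Pdk2) and the gene that was higher (Mpc1). Each is the 250 bases before a RefSeq gene start (GRCm38.p6), written 5′ to 3′ on the gene's strand, and RefSeq windows were at hand for 9 of the 10 genes. These starts can differ from the gene places given elsewhere in this text. By those places the whole Mpc1 window lies within the Mpc1 gene (8282904 to 8297661). The Pdk4 window reaches into the Pdk4 gene (5483351 to 5496309). Capitals mark matches on either strand to any of 8 motifs: AGGTCA (a nuclear receptor hexamer), GTAAACA (a forkhead core), AGAACA (a glucocorticoid receptor hexamer), CACGTG (the E-box), ACGTG (the core bound by hypoxia-inducible factors, which also lies within the E-box), the CCAAT box, the Sp1 box GGGCGG and the TATA motif TATAAA.
Pdk4 chr6:5496279-5496528, minus strand: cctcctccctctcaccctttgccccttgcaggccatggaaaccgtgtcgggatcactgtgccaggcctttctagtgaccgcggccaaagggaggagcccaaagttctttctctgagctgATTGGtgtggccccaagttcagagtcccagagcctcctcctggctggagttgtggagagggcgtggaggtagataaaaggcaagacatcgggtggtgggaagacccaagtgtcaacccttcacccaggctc
Pdk1 chr2:71872974-71873223, plus strand: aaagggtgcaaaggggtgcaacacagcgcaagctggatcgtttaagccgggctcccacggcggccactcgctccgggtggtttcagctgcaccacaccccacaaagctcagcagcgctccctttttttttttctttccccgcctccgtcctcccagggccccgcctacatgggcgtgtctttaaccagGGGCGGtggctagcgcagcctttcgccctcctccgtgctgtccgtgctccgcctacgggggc
Pdk2 chr11:95041372-95041621, minus strand: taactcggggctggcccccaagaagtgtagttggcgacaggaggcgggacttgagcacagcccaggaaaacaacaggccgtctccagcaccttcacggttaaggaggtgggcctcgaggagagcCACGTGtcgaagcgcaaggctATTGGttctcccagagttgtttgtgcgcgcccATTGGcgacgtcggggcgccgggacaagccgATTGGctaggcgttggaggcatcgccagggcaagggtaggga
Mpc1 chr17:8283537-8283786, plus strand: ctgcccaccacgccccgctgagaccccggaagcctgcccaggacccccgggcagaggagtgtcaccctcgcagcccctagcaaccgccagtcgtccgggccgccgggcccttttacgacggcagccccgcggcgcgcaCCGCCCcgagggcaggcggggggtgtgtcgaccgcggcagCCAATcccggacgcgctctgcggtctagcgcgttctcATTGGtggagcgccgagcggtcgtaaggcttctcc
The Pdk4 window held 1 match, to CCAAT, 131 bases before the start, a motif that 33.8% of all 32851 windows of this length hold. The printed Pdk1 window held 1 match, to GGGCGG, which 32.7% of windows hold. The Pdk2 window held 1 CACGTG (6.02% of windows), the ACGTG that it contains (16.6%) and 3 CCAAT matches, and the Mpc1 window held 2 CCAAT and 1 GGGCGG. Among these 4 windows, none held AGGTCA (14.0% of all windows), GTAAACA (3.17%), AGAACA (16.1%) or TATAAA (12.4%). The absence of these letters concerns these 250 bases alone. The second RefSeq start of Pdk1 had 2 AGAACA matches in its window, and that of Mpc1 had 1 AGGTCA and 1 GGGCGG. The other RefSeq start of Pdk2 had none of the 8 motifs in its window, so the matches given for Pdk2 depend on the start chosen.

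Among the other 3 kinase genes, Pdk1 was lower as well and Pdk2 and Pdk3 were not separated by genotype. Pdk1, on chromosome 2 at 71873224 to 71903858, encodes an isoform known as a target of hypoxia-inducible factor. It had 77.3, 136 and 108 CPM in Ptprd+/- livers, against 204, 157 and 165 CPM in Ptprd+/+ livers. The groups did not overlap, although the highest Ptprd+/- library was only 1.15-fold below the lowest Ptprd+/+ library. The log2 fold change was -0.71 (SE 0.20), 1.64-fold lower in Ptprd+/-, with an unadjusted p of 0.00763 and an adjusted p of 0.649 by edgeR and an adjusted p of 0.112 by DESeq2, so it did not pass over all genes. Without Ptprd+/- 2 and Ptprd+/- 3 it was -1.18 (adjusted p 0.298), and over all alternatives edgeR's, DESeq2's and limma-voom's adjusted p lay between 0.0670 and 0.955.

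Pdk2, the isoform found in most tissues, on chromosome 11 at 95026258 to 95041354, had 96.3, 114 and 86.8 CPM in Ptprd+/- and 135, 89.7 and 78.0 CPM in Ptprd+/+ livers. Wild-type library 1 was the highest and wild-type library 3 the lowest, so the heterozygous values fell within the wild-type range. Its log2 fold change was -0.02 (SE 0.20, edgeR adjusted p 0.986). Pdk3, an isoform known mainly from brain and testis, lies on the X chromosome at 93764607 to 93832201. It was near the limit of detection, with 20, 26 and 44 reads in Ptprd+/- and 32, 28 and 16 reads in Ptprd+/+ libraries. As levels these were 0.549, 0.553 and 0.590 CPM in Ptprd+/- and 0.695, 0.547 and 0.428 CPM in Ptprd+/+ livers, and the groups overlapped. Its log2 fold change of 0.016 (SE 0.29, edgeR adjusted p 0.993) leaves room for differences of either sign. No 50-base window of an annotated transcript (GENCODE M21) was shared between any of the 4 kinase genes, and 1.4% of the Pdk4 windows occurred in transcripts of any other gene.

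Set on a common scale of CPM per kilobase of exonic length, Pdk4 was a minor kinase transcript in both genotypes. Its level was 1.77, 1.78 and 0.837 in Ptprd+/- livers, against 3.85, 9.08 and 4.69 in Ptprd+/+ livers. Pdk2 had 31.4 ± 4.42 in Ptprd+/- and 31.9 ± 9.48 in Ptprd+/+ livers, and Pdk1 had 13.7 ± 3.76 and 22.5 ± 3.24 in the same order of genotypes (SD, n = 3 each). Pdk4 therefore made up 4.17, 3.20 and 1.98% of the summed kinase level in the Ptprd+/- libraries and 5.27, 15.7 and 9.25% in the Ptprd+/+ libraries. The summed level of all 4 kinases was 42.4, 55.6 and 42.4 CPM per kilobase in Ptprd+/- and 72.9, 57.8 and 50.7 in Ptprd+/+ livers. These sums overlapped, because Ptprd+/- 2 exceeded Ptprd+/+ 3.

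**Figure D2:**
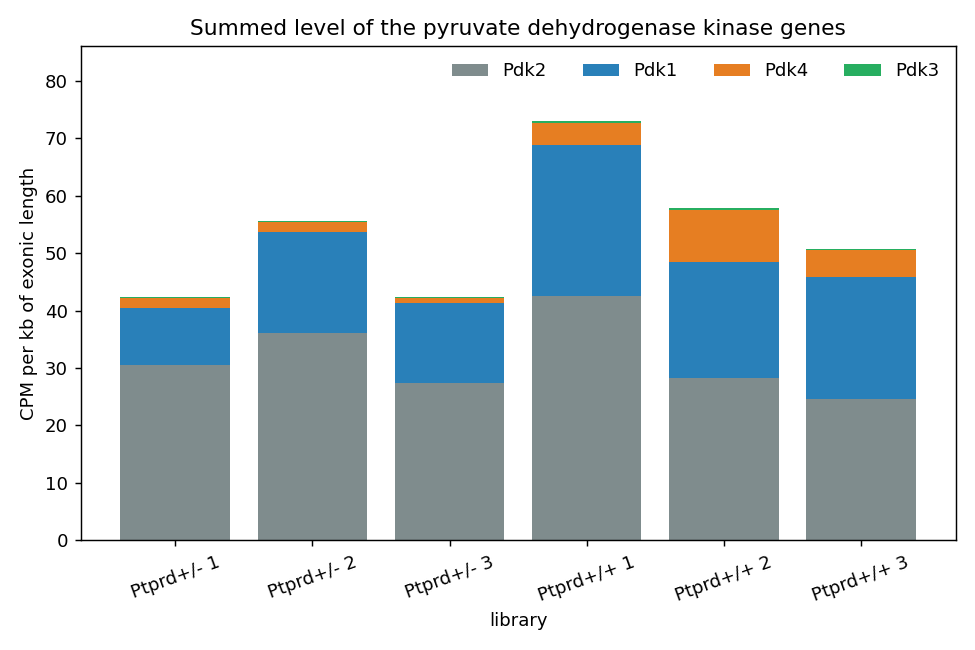
Level of each pyruvate dehydrogenase kinase gene in CPM per kilobase of exonic length (y axis, stacked bars from 0) in each library, Ptprd+/- libraries left of Ptprd+/+ libraries. Pdk2 and Pdk1 make up most of every bar, and the Pdk4 part is between 0.837 and 1.78 in Ptprd+/- and between 3.85 and 9.08 in Ptprd+/+ libraries.

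The order of Pdk1 and Pdk2 depended on the length used, and that of Pdk4 behind both did not. With exonic lengths from GENCODE M21, the mean ratio of Pdk1 to Pdk2 was 0.438 in Ptprd+/- and 0.728 in Ptprd+/+ livers. With the median transcript length that the authors list, a setting chosen after the data were seen, it was 0.768 in Ptprd+/- and 1.28 in Ptprd+/+ livers. The share of Pdk4 was hardly touched, at 3.11% with exonic lengths and 3.27% with the authors' lengths in Ptprd+/-, and 10.1% and 9.83% in Ptprd+/+ livers (means of 3).

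The phosphatase genes did not separate the genotypes. Pdp2, the isoform known from liver and fat as responsive to insulin, lies on chromosome 8 at 104591451 to 104599026. It had 31.1, 44.6 and 31.1 CPM in Ptprd+/- and 40.0, 51.2 and 35.6 CPM in Ptprd+/+ livers, a log2 fold change of -0.25 (SE 0.18, edgeR adjusted p 0.771), with overlapping groups. Pdp1, the calcium-stimulated isoform known best from muscle, lies on chromosome 4, as Ptprd does, at 11958184 to 11966452. It had 1.01, 1.15 and 1.22 CPM in Ptprd+/- and 0.781, 1.66 and 1.23 CPM in Ptprd+/+ livers, with a log2 fold change of -0.11 (SE 0.30, adjusted p 0.952). Wild-type libraries 1 and 2 held the lowest and the highest value of Pdp1, on either side of all heterozygous ones. The ratio of the summed kinase to the summed phosphatase level, both per kilobase, was 7.45, 6.87 and 7.38 in Ptprd+/- and 10.1, 6.17 and 7.78 in Ptprd+/+ libraries. It overlapped between the genotypes, and its wild-type spread enclosed the heterozygous values. With the authors' lengths the ratio was 41.1, 39.9 and 42.6 in Ptprd+/- and 61.1, 37.5 and 48.3 in Ptprd+/+ libraries, so its size depended on the lengths used, and the overlap did not.

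Of the complex itself, Dlat was lower in all Ptprd+/- libraries, while both E1 subunit genes overlapped. Dlat encodes the E2 subunit, dihydrolipoamide acetyltransferase, which forms the core of the complex and to whose lipoyl domains the kinases bind. On chromosome 9 at 50634633 to 50659780, it had 43.1, 47.6 and 48.2 CPM in Ptprd+/-, against 68.2, 53.4 and 60.0 CPM in Ptprd+/+ livers. The gap between the groups was narrow, 1.11-fold from the lowest wild-type to the highest heterozygous library. The log2 fold change was -0.39 (SE 0.11), 1.31-fold lower in Ptprd+/-, with an unadjusted p of 0.00946 and an adjusted p of 0.664 by edgeR and an adjusted p of 0.361 by DESeq2.

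Pdha1 encodes the E1 alpha subunit, which carries the serines that the kinases modify. It lies on the X chromosome at 160122209 to 160138413, and had 97.0, 119 and 101 CPM in Ptprd+/- and 119, 110 and 116 CPM in Ptprd+/+ livers (log2 fold change -0.12, SE 0.11, edgeR adjusted p 0.811). Pdhb, for the partner subunit E1 beta, on chromosome 14 at 8165996 to 8173025, had 60.7, 82.3 and 78.2 CPM in Ptprd+/- and 71.3, 62.5 and 64.0 CPM in Ptprd+/+ livers (log2 fold change 0.16, SE 0.13, edgeR adjusted p 0.788). Ptprd+/- 1 was the lowest library for both E1 genes, and Ptprd+/- 2 the highest. The ratio of Pdha1 to Pdhb per kilobase was 1.65, 1.498 and 1.34 in Ptprd+/- and 1.73, 1.81 and 1.87 in Ptprd+/+ libraries, lower in all 3 heterozygous ones. This ratio was chosen after the values were seen and has no test. Of the 50-base windows of Pdhb, 10.9% also occurred in other genes, mainly Gm6123, and 603 exonic bases of Pdha1 are shared with Map3k15 on the opposite strand, whose count was at most 157 in any library. Without the authors' strand setting, such reads cannot be told apart.

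Mpc1 was the 1 gene of the 10 that was higher in all Ptprd+/- libraries. It encodes a subunit of the mitochondrial pyruvate carrier, which brings pyruvate across the inner membrane as a pair with MPC2. The gene lies on chromosome 17 at 8282904 to 8297661 and had 18.3, 23.4 and 17.2 CPM in Ptprd+/-, against 10.2, 11.9 and 13.9 CPM in Ptprd+/+ livers. The lowest heterozygous library was 1.24-fold above the highest wild-type one. The log2 fold change was 0.71 (SE 0.16), 1.64-fold higher in Ptprd+/-. Its unadjusted p was 0.00222 and its adjusted p 0.577 by edgeR, which did not pass, while DESeq2 gave an adjusted p of 0.0378, past the threshold of 0.05. Over all alternatives the adjusted p lay between 0.0378 and 0.955. The level carries an uncertainty, since 11.0% of the 50-base windows of Mpc1 also occur in its copy Mpc1-ps and 480 of its exonic bases overlap 4930506C21Rik on the other strand. Mpc1-ps itself had 5.65, 7.45 and 5.01 CPM in Ptprd+/- and 2.93, 3.20 and 5.38 CPM in Ptprd+/+ libraries, a log2 fold change of 0.66 (SE 0.26, edgeR adjusted p 0.694) with overlapping groups. 4930506C21Rik had at most 27 reads in any library. How far reads were divided between Mpc1 and its copy was not tested.

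**Figure D3:**
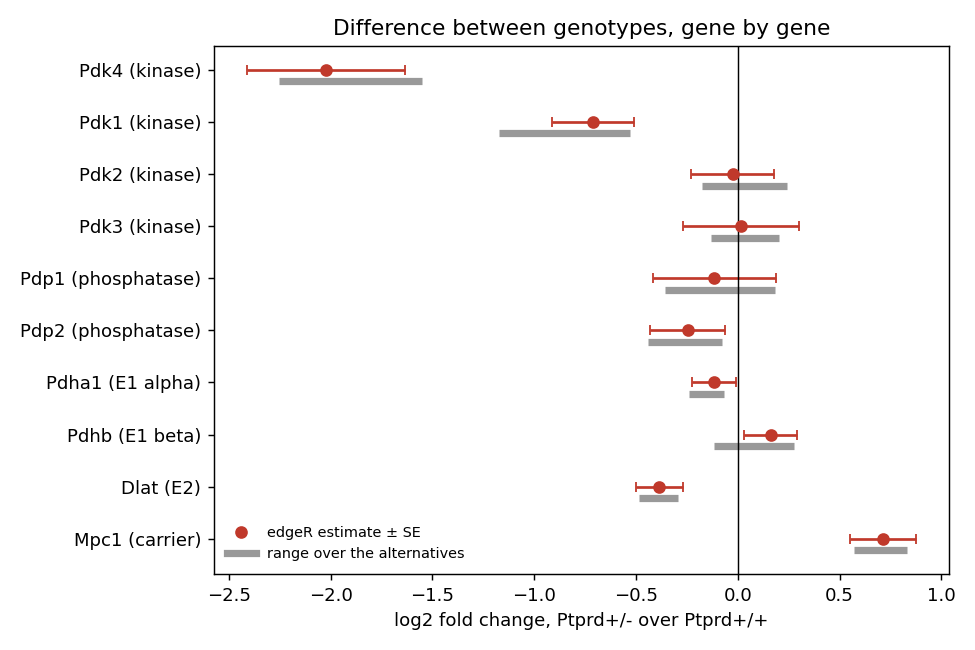
Log2 fold change of Ptprd+/- over Ptprd+/+ (x axis) for each of the 10 genes, as edgeR estimate ± SE (red), with the range over the alternative settings (grey bars). Pdk4 lies at -2.02 and Pdk1 at -0.71, Mpc1 lies at 0.71, and the ranges of Pdk2, Pdk3, Pdp1 and Pdhb cross 0.

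All 10 genes passed the filter on low counts. Of the 9 genes other than Pdk4, edgeR called 0, DESeq2 called 1 (Mpc1, higher, against 0.226% of all tested genes called higher and 0.212% called lower) and 3 had an unadjusted edgeR p under 0.05, against 7.15% of all tested genes. The same 3 genes were those whose groups did not overlap, Pdk1 and Dlat lower and Mpc1 higher, against 13.9% of all tested genes without overlap (6.72% lower and 7.15% higher). The median log2 fold change of the 9 was -0.11, against -0.0039 over all tested genes. Without both Ptprd+/- 2 and Ptprd+/- 3, the log2 fold change was -0.061 for Pdk2, -0.024 for Pdk3, -0.27 for Pdp1, -0.44 for Pdp2, -0.24 for Pdha1 and -0.11 for Pdhb, and edgeR called none of the 9. With 3 samples a group, the smallest two-sided p that an exact permutation test of 1 gene allows is 0.1. In length-scaled level the 10 genes ran, in Ptprd+/- livers, from Pdk2 (31.4 CPM per kilobase) and Pdha1 (28.3) through Pdhb (19.1), Pdk1 (13.7), Dlat (9.48), Mpc1 (9.43), Pdp2 (6.26) and Pdk4 (1.46) to Pdp1 (0.250) and Pdk3 (0.220). In Ptprd+/+ livers the spread of Pdk4 (5.87 ± 2.81) took in the means of Mpc1 (5.76 ± 0.904) and Pdp2 (7.42 ± 1.41). Pdk2 (31.9 ± 9.48) and Pdha1 (30.7 ± 1.29) lay within each other's spread. This order too depended on the lengths. With the authors' lengths, Pdk4, Mpc1 and Pdp2 averaged 36.0, 18.8 and 7.42 in Ptprd+/+ livers, Pdha1 lay above Pdk2, Pdk4 above Pdp2 and Pdk3 above Pdp1 in both genotypes.

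The remaining parts of the complex and the carrier showed small differences. Of 6 further genes, 4 were tested (Mpc2, Pdhx, Dld and Pdpr), 0 passed by edgeR or DESeq2, and the median log2 fold change was 0.042. Pdhx, the protein that anchors the E3 subunit to the core, had 24.4, 27.2 and 27.2 CPM in Ptprd+/- and 23.4, 23.4 and 22.9 CPM in Ptprd+/+ livers, without overlap but with a log2 fold change of only 0.18 (SE 0.093, edgeR adjusted p 0.720). Mpc2, the partner of Mpc1, had 222, 201 and 217 CPM in Ptprd+/- and 169, 184 and 213 CPM in Ptprd+/+ livers, which overlapped (log2 fold change 0.18, SE 0.11, edgeR adjusted p 0.747). Pdpr, a regulatory subunit of the phosphatase, had a log2 fold change of -0.34 (SE 0.24), with 10.9 CPM in Ptprd+/- 1 and 16.2 to 23.3 CPM in the other 5 libraries. Of 12 genes that supply lipoate and thiamine pyrophosphate, the cofactors of the complex, 11 were tested and none passed edgeR's or DESeq2's threshold or an unadjusted edgeR p of 0.05. Their median was 0.027, with Nfu1, an iron-sulfur assembly protein, at 0.18, the lipoyltransferase gene Lipt1 at 0.24 and the thiamine transporter gene Slc19a2 at -0.24. Without both Ptprd+/- 2 and Ptprd+/- 3, Pdhx was at 0.074, Pdpr at -0.97, Lipt1 at 0.15 and Slc19a2 at -0.54.

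The sister complexes for other alpha-keto acids, which share the E3 subunit and have a related kinase, gave 8 tested genes of 9, of which edgeR and DESeq2 called 0. The median log2 fold change was -0.053. Bckdk, the kinase of the branched-chain complex and a relative of the Pdk genes, had 15.9, 13.6 and 13.0 CPM in Ptprd+/- and 10.2, 11.996 and 12.7 CPM in Ptprd+/+ livers. It was thus slightly higher in all heterozygous libraries (log2 fold change 0.28, SE 0.13, edgeR adjusted p 0.702), the opposite sign to Pdk4 and Pdk1. Dbt, the E2 subunit of that complex, was at -0.36 (SE 0.17) and Bckdha, its E1 alpha subunit, at 0.17 (SE 0.11), both with overlap. Bckdk was at 0.45 and Bckdha at 0.30 without both Ptprd+/- 2 and Ptprd+/- 3.

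Pyruvate has other fates, and 13 of 14 genes of pyruvate supply and use were tested. Their median log2 fold change was -0.028, and edgeR and DESeq2 called 0. Ldha, the lactate dehydrogenase subunit that interconverts pyruvate and lactate, had 700, 652 and 616 CPM in Ptprd+/-, against 477, 464 and 552 CPM in Ptprd+/+ livers, without overlap. It was 1.32-fold higher in Ptprd+/- (log2 fold change 0.40, SE 0.11, edgeR unadjusted p 0.00818, adjusted p 0.650). Me1, the cytosolic malic enzyme that releases pyruvate and NADPH for lipid synthesis, had 63.8, 117 and 137 CPM in Ptprd+/-, against 227, 146 and 204 CPM in Ptprd+/+ livers. It was 1.81-fold lower, again without overlap (log2 fold change -0.86, SE 0.28, edgeR adjusted p 0.685). Slc16a7, a monocarboxylate transporter, was at -0.27 (SE 0.15) with overlap. Me1 was at -1.59 and Slc16a7 at -0.50 without both Ptprd+/- 2 and Ptprd+/- 3. Of the 19 genes that use acetyl-CoA or form the citrate cycle, all tested, 2 were higher and 1 was lower at an unadjusted edgeR p under 0.05, against 3.39% higher and 3.77% lower over all tested genes, and the median was -0.011. The lower one was Idh3a, a catalytic subunit of the NAD-dependent isocitrate dehydrogenase, with 32.9 ± 1.12 CPM in Ptprd+/- and 40.1 ± 0.705 CPM in Ptprd+/+ livers (SD, n = 3 each). Acat1, a mitochondrial thiolase of ketone body metabolism, was among the higher ones (log2 fold change 0.35, SE 0.13).

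PPARA targets other than Pdk4 ran mostly the other way from Pdk4. PPARA is the nuclear receptor that switches on fatty acid oxidation in the fasted liver, and Pdk4 is counted among its targets. All 25 listed targets were tested, 20 had a positive and 5 a negative log2 fold change, against 7193 positive and 7413 negative over all tested genes, and the median was 0.20. At an unadjusted edgeR p under 0.05 stood 8 higher and 1 lower, against 3.39% higher and 3.77% lower over all tested genes. Groups without overlap were 11 higher and 2 lower, against 7.15% higher and 6.72% lower. None passed the adjusted threshold by edgeR or DESeq2. Ech1, an enzyme of fatty acid oxidation, had 560, 497 and 477 CPM in Ptprd+/- and 368, 385 and 412 CPM in Ptprd+/+ livers (log2 fold change 0.40, SE 0.11). Cyp4a14, a fatty acid hydroxylase, had 1319, 1076 and 2175 CPM in Ptprd+/- and 901, 877 and 711 CPM in Ptprd+/+ livers (0.88, SE 0.25), and Creb3l3, a fasting-responsive transcription factor, was at 0.39 (SE 0.14). These genes lay above the wild-type range in the livers in which Pdk4 lay below it, and the difference between Pdk4 and them was not tested. Acot2, a mitochondrial acyl-CoA thioesterase, was among the targets lower without overlap, at -0.23 (SE 0.12), and is named after its values were seen. Of other targets also chosen after their values were seen, Cpt1a, the gatekeeper of mitochondrial fatty acid entry, was at 0.16 (SE 0.16) and Angptl4, a secreted inhibitor of lipoprotein lipase, at 0.078 (SE 0.29), both with overlapping groups.

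**Figure D4:**
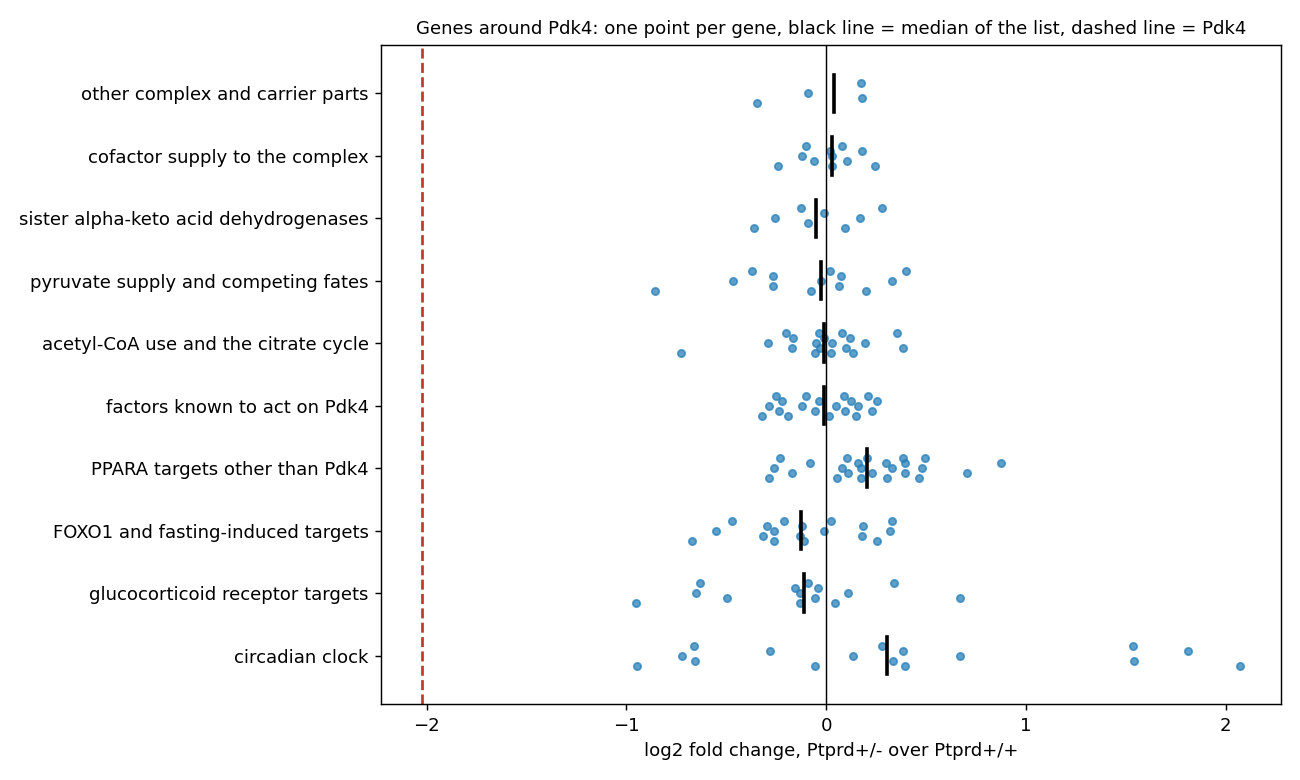
Log2 fold change of Ptprd+/- over Ptprd+/+ (x axis) for each tested gene of 10 lists (blue points, 1 row per list), with the median of each list (black line) and the value of Pdk4 (red dashed line at -2.02). The median of the PPARA targets is 0.20, and every listed gene lies to the right of Pdk4.

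The genes of factors known to act on Pdk4 differed in both directions, with 10 positive and 10 negative log2 fold changes, against 7193 positive and 7413 negative over all tested genes. All 20 were tested, edgeR and DESeq2 called 0, and their median log2 fold change was -0.0096. The 1 gene at an unadjusted edgeR p under 0.05 was the glucocorticoid receptor gene Nr3c1. Nr3c1 had 60.6, 78.8 and 67.2 CPM in Ptprd+/- and 83.8, 90.4 and 78.0 CPM in Ptprd+/+ livers (log2 fold change -0.29, SE 0.12, edgeR adjusted p 0.694), with Ptprd+/- 2 just above Ptprd+/+ 3. Rxra, the obligate partner of the PPARs, had 468, 468 and 549 CPM in Ptprd+/- and 412, 433 and 420 CPM in Ptprd+/+ livers (log2 fold change 0.23, SE 0.11), and Stat5b, a factor of growth hormone signalling, was at -0.23 (SE 0.13). Without both Ptprd+/- 2 and Ptprd+/- 3, Nr3c1 was at -0.47, Rxra at 0.15 and Stat5b at 0.026. Chosen after their values were seen, Ppara was at -0.10 (SE 0.29), Foxo1 at -0.058 (SE 0.20) and Ppargc1a at -0.12 (SE 0.27), each with overlapping groups. These are transcript levels and say nothing of the activity of the proteins.

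FOXO1 and fasting-induced targets, some of which insulin lowers together with Pdk4, were 12 of 18 negative, against 7413 of 14606 over all tested genes, with a median log2 fold change of -0.13. By edgeR and DESeq2 0 passed, and 2 lay lower without overlap, G6pc and Ccng2, against 6.72% of all tested genes. G6pc, which encodes the enzyme that frees glucose for export, had 427, 316 and 217 CPM in Ptprd+/-, against 507, 563 and 458 CPM in Ptprd+/+ livers, 1.59-fold lower (log2 fold change -0.67, SE 0.23, edgeR adjusted p 0.685). Ptprd+/- 3 was the lowest library for G6pc, for Ccng2, a cyclin-family gene repressed by growth factors, and for Pdk4. Ccng2 had 11.9, 11.3 and 5.74 CPM in Ptprd+/- and 15.3, 13.0 and 13.9 CPM in Ptprd+/+ livers (log2 fold change -0.55, SE 0.25), and Trib1, a pseudokinase gene, was at 0.32 (SE 0.15) with overlap. Chosen after their values were seen, Igfbp1, an insulin-repressed binding protein gene, had 60.4, 21.3 and 4.74 CPM in Ptprd+/- and 27.02, 51.1 and 40.7 CPM in Ptprd+/+ livers, and Irs2, an insulin receptor substrate gene, 20.5, 17.5 and 9.50 CPM in Ptprd+/- and 7.14, 27.8 and 23.2 CPM in Ptprd+/+ livers. In both of them the wide ranges overlapped. Pck1, also chosen after its values were seen, was among the 6 positive genes of the list, at 0.33 (SE 0.20). It had 2956, 4358 and 2628 CPM in Ptprd+/- and 2761, 2415 and 2727 CPM in Ptprd+/+ livers, with overlap. The median of the list depended on single libraries, and was -0.037 without Ptprd+/- 1, -0.31 without Ptprd+/- 2, -0.025 without Ptprd+/- 3 and 0.019, with 9 genes negative, without Ptprd+/+ 2. Without both Ptprd+/- 2 and Ptprd+/- 3 the median was -0.28, and the log2 fold change was -0.25 for G6pc, -0.24 for Ccng2 and 0.13 for Trib1.

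Across the 6 libraries, the genes whose log2 CPM ran most like that of Pdk4 were Itgb3bp, Nek4, Calm2, Zmym4, Tfpi2 and Selenoi, with Pearson correlations between 0.968 and 0.989. Libraries of 1 genotype share it, so these values describe likeness over 6 points. The amplitudes were small, since Calm2, a calmodulin gene, had 55.9, 57.2 and 54.4 CPM in Ptprd+/- and 58.6, 60.7 and 59.2 CPM in Ptprd+/+ livers. Tfpi2, a serine protease inhibitor gene, had the largest difference of the 6, with 40.2, 42.8 and 38.2 CPM in Ptprd+/- and 53.2, 66.7 and 53.8 CPM in Ptprd+/+ livers (log2 fold change -0.52, SE 0.12, edgeR adjusted p 0.577). By rank correlation 1 of these 6 genes was among the 6 most alike. Among the members, the correlation with Pdk4 was 0.694 for Pdp2, 0.637 for Pdk1, 0.574 for Dlat, -0.0436 for Pdk2, -0.590 for Pdhb and -0.689 for Mpc1, over the same 6 libraries.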

How the data were processed

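Polyadenylated liver RNA was sequenced from strand-marked libraries, per the labels' protocols. The authors deposited raw read counts per Ensembl gene, per the file headers, with mm10 coordinates and a median transcript length in bases. The submitters' processing notes list STAR 2.5.3a, cutadapt 1.10, bcl2fastq 2.17.1.14, DESeq2 1.16.1 and HTSeq 0.6.1p1. The sources used here do not give the strand setting, annotation release or treatment of multiply mapped reads. The table's other 12 columns of per-sample values and the authors' table of fold changes were not used.

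From the counts, edgeR's filterByExpr (minimum count 10) kept 14606 genes holding 99.955% of reads. The genotypes were compared with edgeR 4.0.16 (R 4.3.3; TMM scaling, quasi-likelihood F test, two-sided, Benjamini-Hochberg adjustment over all tested genes, threshold 0.05), with DESeq2 1.42.0 and limma-voom 3.58.1 as alternatives. SE values derive from the F statistic. The common coefficient of variation was 18.5%. The fits were first tested on simulated data. Log2 CPM for correlations used a prior count of 2. Exonic lengths and shared 50-base windows came from GENCODE M21, whose places for all 10 members equal those in the table.

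Members and gene lists were chosen with earlier results of these data known. Named genes are the members, the 3 list members with the smallest unadjusted p, any list gene called by DESeq2, Ptprd and the 6 genes most like Pdk4 by Pearson correlation, among tested genes with a mean of at least 1 CPM and no Gm or Rik name. Others are marked as chosen later. Some genes that the rule names are not reported here.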

Additional observations from a re-analysis of the deposited data

How the results depend on the processing

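Pdk4 was chosen on this difference and its groups did not overlap, so its sign could not turn when libraries were left out. Its log2 fold changes lay between -2.25 and -1.55 over the 15 alternatives, which describes their size alone. Groups without overlap also fix the sign of Pdk1, Dlat and Mpc1 when libraries are left out. Pdk1 (-1.18 to -0.53), Dlat (-0.48 to -0.29), Pdp2, Pdha1 and Mpc1 (0.57 to 0.83) kept their signs. The number of genes called over all tested genes was 64 with DESeq2, 73 with no filter and 0 to 1 when 1 library was left out, the 1 being called without Ptprd+/- 2, and 0 otherwise. Mpc1 passed with DESeq2 (0.71, adjusted p 0.0378) and with no filter (0.72, adjusted p 0.0417) and in no other setting. With no filter 3 list genes passed, namely Cyp4a14, Nr1d1 and Dbp, all higher. Genes near 0 changed sign: Pdk2 with limma-voom (0.011), with the replicate block (0.0076) and over the leave-one-out fits (-0.18 to 0.24), Pdk3 with library totals alone (-0.024), without both Ptprd+/- 2 and Ptprd+/- 3 (-0.024) and over the leave-one-out fits (-0.13 to 0.20), Pdp1 over the leave-one-out fits (-0.36 to 0.18), and Pdhb without both Ptprd+/- 2 and Ptprd+/- 3 (-0.11). List medians moved for FOXO1 targets (-0.31 to 0.019), the citrate cycle (-0.046 to 0.077) and the sister dehydrogenases (-0.088 to 0.091) over the leave-one-out fits, and for other complex parts (-0.050) and the circadian clock (-0.27, against 0.31 with all libraries) without both Ptprd+/- 2 and Ptprd+/- 3. The cause was not tested. Rank correlation kept 1 of the 6 genes most like Pdk4. Pdk3 could not be given at 1 CPM in 3 libraries, where it was filtered out. Leaving out Ptprd+/- 2 and 3 leaves 1 heterozygous library, assumed to vary like the others.

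Replicate numbers are shared by the genotypes. Deviations from the group means correlated at -0.068, 0.12 and 0.15 for the same-numbered samples 1, 2 and 3. For differently numbered samples the correlations lay between -0.30 and 0.18. With 3 samples a group these values cannot decide whether the numbers pair the samples, and the main fit did not pair them. With the replicate block edgeR called 0 genes, and the log2 fold change of Pdk4 was -1.996, of Pdk1 -0.74, of Dlat -0.38 and of Mpc1 0.71. At the depth of these libraries Pdk3 and Pdp1, under 2 CPM, could show only large differences.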

Other observations

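Glucocorticoid receptor targets, which like Pdk4 are induced by fasting hormones, were mostly low in Ptprd+/+ 2, the library with the highest Pdk4. It was the lowest of the 3 Ptprd+/+ libraries for 11 of 14 tested targets, the middle one for 2 and the highest for 1, a tally made after the values were seen and without a test. The same library was also lowest for 9 of 13 genes of pyruvate supply and use and 11 of 19 of the citrate cycle list. For FOXO1 and fasting-induced targets it was highest for 10 of 18. The share over all tested genes was not computed, so whether the tally is particular to glucocorticoid receptor targets was not tested. Of the 15 listed glucocorticoid receptor targets 14 were tested, none passed by edgeR or DESeq2 or an unadjusted edgeR p of 0.05, and the median log2 fold change was -0.11. The sign of the median turned without Ptprd+/+ 1 (0.093), without Ptprd+/- 2 (0.028) and without both Ptprd+/- 2 and Ptprd+/- 3 (0.13). Per1, a clock repressor gene, had 40.9, 62.9 and 61.8 CPM in Ptprd+/- and 43.5, 13.7 and 46.9 CPM in Ptprd+/+ livers. Errfi1, a feedback inhibitor of growth factor receptors, had 1223, 1161 and 1188 CPM in Ptprd+/- and 1128, 420 and 1270 CPM in Ptprd+/+ livers. Zbtb16, a transcription repressor gene, had 13.5, 10.6 and 16.5 CPM in Ptprd+/- and 47.3, 8.38 and 23.0 CPM in Ptprd+/+ livers, and the groups overlapped in all of these genes.

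The 16 circadian genes, all tested, had a median log2 fold change of 0.31 and differed widely within Ptprd+/-. The median was 0.65 without Ptprd+/- 1, -0.032 without Ptprd+/- 2 and -0.27, with 5 genes higher and 11 lower, without both Ptprd+/- 2 and Ptprd+/- 3. Nr1d1, which encodes the repressor REV-ERB alpha, had 17.6, 55.5 and 46.9 CPM in Ptprd+/- and 9.49, 21.4 and 10.4 CPM in Ptprd+/+ livers. Clock, the partner of BMAL1, was the 1 list member of 16 without overlap, against 13.9% of all tested genes, with 31.3, 20.2 and 20.3 CPM in Ptprd+/- and 37.4, 33.4 and 42.5 CPM in Ptprd+/+ livers (log2 fold change -0.66, SE 0.19, edgeR adjusted p 0.649). Without both Ptprd+/- 2 and Ptprd+/- 3 the log2 fold change was -0.27 for Clock, 0.36 for Nr1d1 and -0.64 for Dbp, and that of Per1 was 0.24. Whether the clock genes had a part in the Pdk4 difference was not tested.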
